A study of Mus musculus with 12 samples.

Results

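Gene expression was compared in the tibialis anterior (TA), the muscle at the front of the lower leg, between mice without dysferlin and controls, both aged 3 weeks. The samples were the 6 TA arrays among the 12 arrays of the series, taken by their titles: 3 of the line C57BL/10-SJL.Dysf (called Dysf_null here, labelled Dysf -/-) and 3 of C57BL/10 (called control here, labelled Dysf +/+). Both groups have the C57BL/10 background, and the mutant line carries the dysferlin allele of the SJL strain. How much other SJL sequence the line still holds is not given in the labels. The other 6 arrays hold the same genotypes in the muscle labelled QF, the quadriceps femoris of the thigh, and are used here only for comparison. TA and QF are spelled out from knowledge of the study. Total RNA of whole muscle was measured on single-channel arrays, 1 sample per array, with several probe sets for some genes. The labels do not say whether the 3 replicates of a group are different mice. The p-values therefore rest on the spread among arrays, part of which may be technical. In RNA of whole tissue, more cells of a type and more RNA per cell cannot be told apart.

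Dysferlin sits in the membranes of muscle fibres and of some other cells, among them monocytes. It takes part in sealing tears of the sarcolemma, the fibre's outer membrane, together with annexins and caveolin. Loss of dysferlin causes limb-girdle muscular dystrophy and Miyoshi myopathy in people, and muscle disease in mice that appears slowly after a period with little visible change. The TA is made almost wholly of fast fibres, in which force passes from the sarcomere through the Z-disc, the plate that anchors actin, to the membrane and the tendon.

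The muscle labels were checked first. The fibre genes Acta1 (13.88 to 14.21 in log2 intensity over the 6 arrays), Tnnt3 (13.71 to 14.21) and Myh4 (13.78 to 13.92) were at the top of the range, with no call between genotypes. Quantile normalization gives each rank the same value on every array. At the top of the range it leaves little room for a difference, so the lack of a call there says little. Hoxa11, a position gene of the distal limb, lay between 6.18 and 6.57 on the TA arrays and at the floor of 4.53 on all 6 QF arrays when the 12 arrays were normalized together. The Dysf transcript itself was not analysed here, since no probe set carried that name, and the genotype labels thus had no check of their own. Xist, made from the inactive X chromosome, was above the floor on all 6 arrays (6.33 to 8.82), and the Y-linked genes Eif2s3y, Kdm5d and Uty were not above it on 3 arrays. Xist was 1.00 ± 0.44 lower in Dysf_null, with overlapping groups (adjusted p 0.52, and 0.031 with the replicate number as a block). The median deposited intensity of the TA arrays ranged from 72.9 to 84.3. The ratio of 3′ to 5′ control probe sets, a sign of RNA quality, was 0.841 to 0.896 for Gapdh and 0.891 to 1.10 for Actb. For Actb it was 0.891 to 0.988 in Dysf_null and 0.902 to 1.10 in controls, and its part in the results was not tested.

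Of 9532 probe sets tested, 74 (0.776%) were called at an adjusted p under 0.05 in limma with Benjamini-Hochberg adjustment, 46 higher in Dysf_null (0.483%) and 28 lower (0.294%). They covered 66 named genes, 38 higher and 28 lower, among 6898 tested. Values are log2 intensities, where a difference of 1 is a doubling, and differences are Dysf_null minus control ± SE with 3 arrays a group. Called differences were between 0.592 and 3.45 in size, and all 74 had groups that did not overlap. Groups also stood apart for 7.5% of all probe sets on the higher side and 7.45% on the lower side, so separation of 3 against 3 arrays was common by itself. Over all probe sets the median difference was -0.0043, and 49.3% were positive. An unadjusted p under 0.05 in limma was reached by 916 of the 9532. The list counts at that p given below are to be read beside this share, and a count near it is no result about the list. With the replicate number as a block, 162 (1.7%) were called, 99 higher and 63 lower, 70 of the 74 among them. The block was chosen from the same data, so a call gained with it is no added support. With the variance shared with the QF arrays 39 of the 74 were called, with no filter on low values 34 and with no intensity trend 32. Leaving out 1 array at a time left 30 to 56 calls, and 25 of the 74 probe sets stayed called in all 6 such fits (11 lower, 14 higher). A call described below as holding without any 1 array is one of these 25, and a further setting that ended it is given beside it. A further 3 (Anp32a, Mmp9 and Isg20) were at the floor in 1 whole group and could be tested only without an array of that group, so leaving out an array says little of them. The floor leaves no spread within such a group, and the probe set passed the filter through the other group alone. The adjusted p of these 3, and of the Mkrn1 probe set with all controls at the floor, may thus overstate the precision. For the rest of the 74 probe sets the highest adjusted p over the 6 fits is given with the array left out (array 1, 2 or 3 by its replicate number). Those that lost the call whichever array was left out are named. The remaining ones lost it in 1 to 5 of the fits, so the array given need not be the only one that ended the call. No named difference that was called in the main or another setting changed sign under the settings tried, the scaling included.

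**Figure D1:**
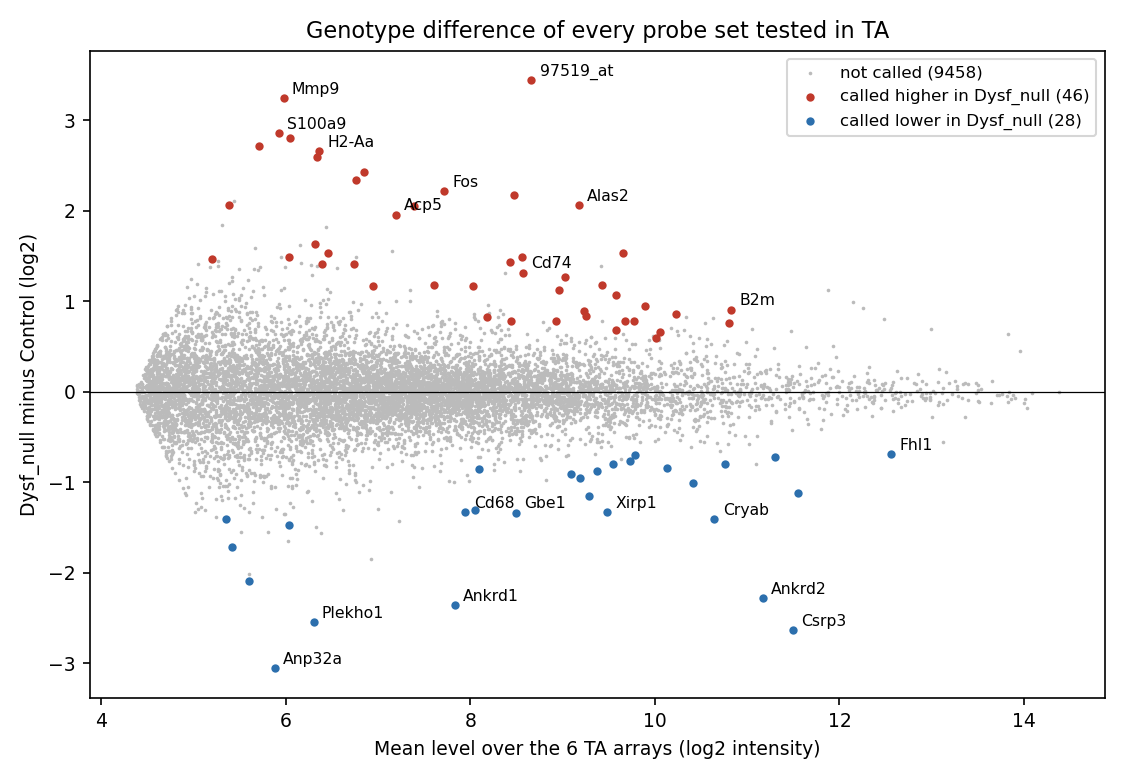
Each of the 9532 probe sets tested in TA is a point, with its mean log2 intensity over the 6 arrays on the horizontal axis and the Dysf_null minus control difference (log2) on the vertical axis. The 46 probe sets called higher (red) and the 28 called lower (blue) lie mostly outside the band of the others, with Csrp3 and Ankrd2 far below it at a high level and Mmp9 and the unnamed 97519_at far above it.

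Large falls were found in genes of the Z-disc and of the response to stretch. Csrp3, Ankrd2 and Ankrd1 were 6.23-fold, 4.86-fold and 5.14-fold lower in Dysf_null, and Xirp1 and Fhl1 fell too. Most other genes of the sarcomere were not called. The stretch of 250 bases before the transcription start is shown for the 3 Z-disc and stretch genes with the largest falls, since they moved together, and for Alas2, which rose and belongs to another cell type (see the red cell genes). The sequences are from RefSeq on GRCm38.p6, written along the gene's strand. Capitals mark E-boxes (CANNTG, the motif of MyoD-type factors) and MCAT motifs (CATTCC or GGAATG, the motif of TEAD factors) and GATA motifs (AGATAA or TTATCT), each searched on both strands of all 4 windows. The windows lie at chr7:48848052-48848301 on the minus strand for the first of 2 starts of Csrp3, chr19:36119845-36120094 on the minus strand for Ankrd1, chr19:42035777-42036026 on the plus strand for Ankrd2 and chrX:150547167-150547416 on the plus strand for Alas2.
Csrp3: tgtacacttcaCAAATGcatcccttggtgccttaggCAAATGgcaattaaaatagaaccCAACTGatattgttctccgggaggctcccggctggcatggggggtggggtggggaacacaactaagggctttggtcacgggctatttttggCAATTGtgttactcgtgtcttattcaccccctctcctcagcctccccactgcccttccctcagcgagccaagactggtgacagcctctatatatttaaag
Ankrd1: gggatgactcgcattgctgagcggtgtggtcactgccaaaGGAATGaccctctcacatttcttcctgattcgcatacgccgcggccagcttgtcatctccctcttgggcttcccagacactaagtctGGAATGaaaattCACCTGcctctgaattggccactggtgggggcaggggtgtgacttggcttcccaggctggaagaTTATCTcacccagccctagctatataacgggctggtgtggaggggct
Ankrd2: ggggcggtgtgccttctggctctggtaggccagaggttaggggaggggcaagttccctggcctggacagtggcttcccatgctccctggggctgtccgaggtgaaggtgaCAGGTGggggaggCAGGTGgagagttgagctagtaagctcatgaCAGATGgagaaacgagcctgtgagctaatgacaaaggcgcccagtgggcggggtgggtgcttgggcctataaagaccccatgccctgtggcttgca
Alas2: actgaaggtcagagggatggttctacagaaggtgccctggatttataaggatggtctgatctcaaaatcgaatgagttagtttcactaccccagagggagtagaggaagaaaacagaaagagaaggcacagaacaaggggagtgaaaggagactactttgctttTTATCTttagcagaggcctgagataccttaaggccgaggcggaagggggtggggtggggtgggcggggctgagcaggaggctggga

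The Csrp3 window held 4 E-boxes, Ankrd2 held 3, Ankrd1 held 1 and Alas2 held 0. Ankrd1 alone of these windows had MCAT motifs, 2 of them, both on the other strand, 210 and 123 bases before the start. An E-box is common: 66.2% of 32851 windows of this length in the table held at least 1, against 12.6% for MCAT. The longer MEF2 and CArG motifs, found in 2.92% and 1.47% of windows, were not matched in these windows. A GATA motif, which 9.99% of windows hold, was matched on the other strand in Alas2, 86 bases before the start, and also in Ankrd1, 47 bases before it. These are matches of letters and not measured sites.

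Csrp3 encodes muscle LIM protein, which sits at the Z-disc and moves to the nucleus. Its level was 10.12, 10.16 and 10.25 on the Dysf_null arrays and 12.83, 12.65 and 12.96 on the controls, a difference of -2.64 ± 0.11 (adjusted p 2.59e-05). The arrays of each genotype lay close together and the groups were far apart. No probe set of its relatives was called: Csrp2 differed by 0.66 ± 0.23 (adjusted p 0.37), and the 2 probe sets of Csrp1 by 0.44 ± 0.14 and 0.22 ± 0.23.

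Ankrd2 and Ankrd1 encode ankyrin repeat proteins that bind titin and are known to respond to stretch. Ankrd2 read 10.10, 9.79 and 10.20 in Dysf_null against 12.41, 12.18 and 12.33 (-2.28 ± 0.13, adjusted p 0.000123). Ankrd1 read 6.32, 6.76 and 6.88 against 9.03, 8.84 and 9.18 (-2.36 ± 0.19, adjusted p 0.000889). In both genes the gap between the groups was several times the spread within them. Xirp1, an actin-binding protein of the muscle-tendon junction, read 8.78, 9.04 and 8.64 against 10.11, 10.26 and 10.08 (-1.33 ± 0.13, adjusted p 0.00284). These calls, and that of Csrp3, held when any 1 array was left out.

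Fhl1, a LIM protein of the sarcomere, has 2 probe sets, both with differences below 0. The weaker probe set differed by -0.69 ± 0.10 (adjusted p 0.0193, lost whichever array was left out, at most 0.0933 without Dysf_null array 2), the brighter by -0.56 ± 0.11 (adjusted p 0.062, and 0.022 with the block). Fhl2 differed by 0.18 ± 0.22. Of the 17 members of the Z-disc and stretch list on the array, all were measured. On the brightest probe set of each, 4 were called lower and 0 higher, the median difference was -0.27, and 7 were called lower with the block. The summed intensity of the list was 43900 to 44970 on the Dysf_null arrays and 59340 to 62920 on the controls.

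Genes of 3 small heat shock proteins fell as well. Cryab, the chaperone of desmin, read 10.12, 10.03 and 9.67 in Dysf_null against 11.55, 11.12 and 11.39 (-1.41 ± 0.15, adjusted p 0.00415). The call held without any 1 array, but not with no filter on low values (adjusted p 0.0987) or no intensity trend (0.0508). This probe set is of a type that can bind more than 1 transcript of a family, and the other probe set of Cryab lay near the floor on all arrays (0.06 ± 0.32). Hspb8, which works with Bag3 in removing damaged Z-disc protein, read 11.05, 10.81 and 10.96 against 11.68, 11.61 and 11.69 (-0.72 ± 0.10, adjusted p 0.0149, at most 0.0911 without Dysf_null array 2, with the call kept only in 1 of 6 fits). Hspb2, which lies beside Cryab in the genome and was named after its values were seen, was called lower on 1 of 2 probe sets (-0.88 ± 0.11, adjusted p 0.00675, at most 0.0598 without control array 2). Its brighter probe set differed by -0.42 ± 0.13 and was not called (adjusted p 0.26). A second probe set of Hspb8 differed by -1.08 ± 0.22 (adjusted p 0.083, and 0.047 with the block). Bag3 differed by -0.55 ± 0.12 and -0.60 ± 0.13 on its 2 probe sets (adjusted p 0.088 and 0.093, and 0.042 and 0.059 with the block). Over the 19 measured heat shock genes 2 were called lower and 0 higher, with a median of -0.16. Dnaja1, a partner of the larger chaperones, differed by 0.46 ± 0.13 (adjusted p 0.2).

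**Figure D2:**
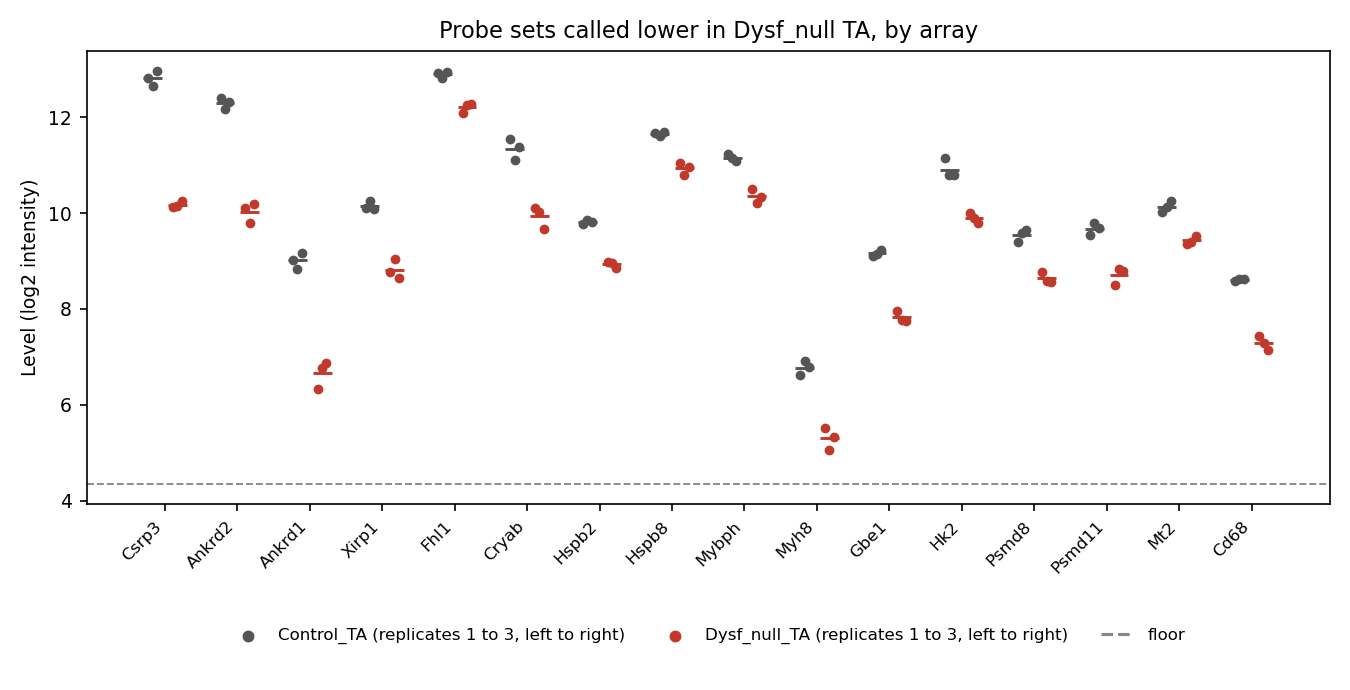
Log2 intensity of 16 genes called lower in Dysf_null TA, 1 point per array with the group mean as a bar, controls in grey and Dysf_null in red, and the floor as a dashed line. Csrp3, Ankrd2 and Ankrd1 show the widest gaps and tight groups, and in each gene every Dysf_null array is below every control array.

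Few genes of the contractile apparatus were called. Of 16 measured fast fibre genes, 1 was called (Mybph, lower), and the median was -0.06. Myh4, the main fast myosin, differed by -0.04 ± 0.10, and Myh1 by -0.28 ± 0.17. Many of the fast fibre genes lie at the top of the range, where quantile normalization leaves little room for a difference. Mybph, a myosin-binding protein of the thick filament, read 10.50, 10.21 and 10.35 against 11.23, 11.15 and 11.09 (-0.80 ± 0.11, adjusted p 0.014, at most 0.0851 without Dysf_null array 2). Of 10 slow fibre genes 0 were called in limma (2 at an unadjusted p under 0.05), and the median was -0.04. Myl2, the slow and cardiac light chain, differed by 0.33 ± 0.12 (adjusted p 0.37).

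Of 22 measured genes of developing and regenerating muscle 0 were called higher in limma (1 at an unadjusted p under 0.05) and 1 lower, with a median of 0.04. The call was Myh8, the perinatal myosin, at 5.52, 5.05 and 5.33 against 6.62, 6.92 and 6.79 (-1.48 ± 0.25, adjusted p 0.0379, 0.052 with the block, at most 0.192 without control array 2). All its values were low. Myh3, the embryonic myosin, was at or near the floor in Dysf_null (4.35, 4.35 and 4.39) and low in controls (4.99, 5.73 and 4.41).

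At the sarcolemma no gene of the dystrophin complex list was called in limma (21 measured, 4 at an unadjusted p under 0.05, median -0.16, 17 negative), and 2 were called lower with the block. These were Itga7, the laminin receptor of the fibre, at -0.67 ± 0.13 (adjusted p 0.062, and 0.043 with the block), and Ank3, which ties membrane proteins to the cytoskeleton, at -0.71 ± 0.14 (adjusted p 0.075, and 0.048 with the block). Of 23 genes of dysferlin's own pathway of membrane repair, 1 was called higher, and 4 with the block, with a median of 0.08. Anxa5, an annexin that binds exposed phosphatidylserine, read 10.30, 10.32 and 10.32 against 9.70, 9.76 and 9.70 (0.59 ± 0.10, adjusted p 0.0313, lost whichever array was left out, at most 0.153 without Dysf_null array 3). The difference was the smallest of the called ones, and the arrays of each group lay close together. Anxa1, an annexin known to bind dysferlin, had 3 probe sets with differences of 0.38 ± 0.16, 0.75 ± 0.22 and 0.61 ± 0.14 (adjusted p 0.49, 0.24 and 0.11, the last 0.03 with the block). Cav1, a caveolin, differed by 0.16 ± 0.11 on its brighter probe set. The 13 genes of calcium release and the T-tubule had no call in limma and 0 at an unadjusted p under 0.05, with a median of -0.07 and the release channel Ryr1 at -0.19 ± 0.12.

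In energy metabolism the calls were in glucose handling. Gbe1, the glycogen branching enzyme, read 7.96, 7.77 and 7.75 in Dysf_null against 9.11, 9.16 and 9.23 (-1.34 ± 0.13, adjusted p 0.00244), and the call held. Hk2, the hexokinase of muscle, read 10.01, 9.90 and 9.81 against 11.15, 10.80 and 10.79 (-1.01 ± 0.13, adjusted p 0.00843, at most 0.0654 without Dysf_null array 2). Tbc1d1, a regulator of glucose transporter traffic named after its values were seen, differed by -0.86 ± 0.14 (adjusted p 0.0275, lost whichever array was left out, at most 0.129 without Dysf_null array 3). The insulin-responsive transporter Slc2a4 differed by -0.58 ± 0.13 on its brighter probe set (adjusted p 0.12). Ugp2, which makes the sugar donor of glycogen, differed by -0.48 ± 0.11 (adjusted p 0.14, and 0.036 with the block). Of 24 glycolysis and glycogen genes 2 were called lower and 0 higher (median -0.12), and 3 lower with the block. Of 48 measured genes of oxidative phosphorylation 0 were called in limma and 1 had an unadjusted p under 0.05, with a median of -0.07 and 37 below 0. Of 27 fatty acid genes 0 were called in limma and 5 had an unadjusted p under 0.05, with a median of -0.09.

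In protein breakdown 2 genes of the proteasome fell. Psmd8, a part of the proteasome's regulatory cap, read 8.77, 8.59 and 8.56 against 9.39, 9.60 and 9.66 (-0.91 ± 0.13, adjusted p 0.0149, at most 0.094 without control array 2). Psmd11, another cap subunit named after its values were seen, was lower on 1 of 3 probe sets (-0.96 ± 0.14, adjusted p 0.0149, at most 0.0962 without control array 2), while its other probe sets differed by -0.45 ± 0.20 and 0.35 ± 0.55. Sqstm1, the autophagy receptor p62, differed by -0.56 ± 0.12 (adjusted p 0.097, and 0.031 with the block). Of 37 measured genes of the list 1 was called lower on its brightest probe set, 2 with the block, 30 differences were below 0 and the median was -0.22. Of the metallothioneins Mt1 and Mt2, which bind zinc and respond to glucocorticoids, Mt2 read 9.37, 9.41 and 9.53 against 10.02, 10.14 and 10.26 (-0.70 ± 0.11, adjusted p 0.0295, lost whichever array was left out, at most 0.134 without Dysf_null array 2) and Mt1 differed by -0.74 ± 0.14 (adjusted p 0.066, and 0.022 with the block). Ddit4, a stress gene that also responds to glucocorticoids, differed the other way (0.90 ± 0.18, adjusted p 0.07, and 0.022 with the block). Of 22 genes of the response to glucocorticoids and metals 1 was called lower and 0 higher (2 lower and 1 higher with the block), with a median of -0.17.

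Some of the largest rises were in genes of matrix-degrading proteases and of bone, among them genes made by osteoclasts, the cells that resorb bone. Of 16 measured genes of osteoclasts and bone 6 were called higher and 0 lower (Mmp9, Ibsp, Mmp13, Acp5, Ctsk and Car2), and the median was 0.75, the highest of all lists. The lists were chosen with earlier results of these data known, so this rank is no support by itself. The summed intensity of the 16 genes was 2416 to 2809 in Dysf_null and 1064 to 1149 in controls. The osteoclast marker Calcr and the bone genes Phex and Col22a1 were not above the floor on 3 arrays. Of the called genes, Mmp9 is also on the granulocyte list and Car2 on the red cell list. The call of Mmp9 rests on controls wholly at the floor.

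Mmp9, a gelatinase of osteoclasts and granulocytes, read 7.52, 7.48 and 7.80 in Dysf_null and was at the floor on all 3 controls, so it was at least 9.51-fold higher against the floor (adjusted p 0.00057). Mmp13, a collagenase of cartilage and bone, read 7.67, 8.31 and 7.82 against 5.16, 5.49 and 6.11 (2.35 ± 0.30, adjusted p 0.00843, at most 0.0654 without Dysf_null array 2). Ibsp, bone sialoprotein, read 7.34, 7.76 and 7.24 against 5.22, 4.35 and 4.35 (2.80 ± 0.32, adjusted p 0.00428). The other probe set of Ibsp differed by -0.36 ± 0.53 with overlapping groups, so the 2 probe sets of this gene disagreed.

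Acp5, the acid phosphatase that marks osteoclasts and is also made by macrophages, read 7.93, 8.41 and 8.17 against 6.06, 6.42 and 6.16 (1.96 ± 0.21, adjusted p 0.00348). Ctsk, the collagen-cleaving cathepsin of osteoclasts, read 9.26, 9.45 and 9.20 against 7.69, 7.79 and 7.98 (1.49 ± 0.14, adjusted p 0.00216). The calls of Acp5, Ctsk and Ibsp held without any 1 array, but that of Ctsk was lost with the variance shared with the QF arrays (adjusted p 0.0687) and that of Ibsp with no filter on low values (0.0898). Car2, the carbonic anhydrase of osteoclasts and red cells, read 8.21, 8.25 and 8.13 against 7.05, 7.13 and 6.87 (1.18 ± 0.16, adjusted p 0.0131, at most 0.0871 without Dysf_null array 2). Of 11 measured cartilage genes 1 was called higher: Col11a1, a fibrillar collagen, at 7.24, 7.06 and 7.37 against 5.44, 5.47 and 6.17 (1.53 ± 0.27, adjusted p 0.0423, at most 0.181 without Dysf_null array 3). The defining cartilage gene Col2a1 was low on all arrays and differed by -1.05 ± 0.37 (adjusted p 0.35), and Acan, Matn1 and Matn3 were not above the floor on 3 arrays. The summed cartilage intensity was 1108 to 1344 against 851.8 to 1059. The part of bone or cartilage cells in these results was not tested.

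Some granulocyte genes rose with Mmp9. S100a8 and S100a9, whose proteins pair to form calprotectin of neutrophils, were 5.39-fold and 7.26-fold higher. S100a8 read 8.23, 8.21 and 7.75 in Dysf_null against 6.02, 5.23 and 5.65 (2.43 ± 0.27, adjusted p 0.00415). S100a9 read 7.27, 7.40 and 7.42 against 4.35, 4.47 and 4.68 (2.86 ± 0.24, adjusted p 0.000901). The controls of S100a9 lay at or just above the floor. Both calls held without any 1 array, and that of S100a8 was lost with no filter on low values (adjusted p 0.0735). Camp, the granule peptide cathelicidin, had its lowest Dysf_null array (7.70) above every control (1.55 ± 0.35, adjusted p 0.12, and 0.033 with the block). Of 26 granulocyte genes on the array 18 were measured, 3 were called higher and 0 lower, and the median was 0.61. The summed intensity was 2968 to 3093 against 1620 to 1908. The defining markers Ly6g, Mmp8 and Ctsg were among 8 genes not above the floor on 3 arrays.

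Some red cell genes rose as well. Alas2, the first enzyme of haem synthesis in red cell precursors, read 10.52, 10.11 and 9.99 in Dysf_null against 8.23, 8.15 and 8.05 (2.06 ± 0.16, adjusted p 0.000651). Bpgm, which makes the red cell's regulator of oxygen release, read 10.24, 9.92 and 9.88 against 8.89, 8.78 and 8.85 (1.18 ± 0.13, adjusted p 0.00415). Both calls held without any 1 array, and that of Bpgm was lost with no filter on low values (adjusted p 0.0509) or no intensity trend (0.0515). Their 3 Dysf_null arrays were all above every control. Hba-a1, an alpha globin, read 14.21, 14.13 and 14.09 against 13.71, 13.43 and 13.38 (0.63 ± 0.12, adjusted p 0.065, and 0.011 with the block). Globin genes are near-identical copies, so this probe set may read more than 1 of them. Tfrc, the transferrin receptor, named after its values were seen, was higher on 1 of 2 probe sets (0.78 ± 0.13, adjusted p 0.0412, lost whichever array was left out, at most 0.195 without control array 2), and its other probe set differed by 0.82 ± 0.18. Of 20 measured red cell genes 3 were called higher (Alas2, Bpgm and Car2) and 0 lower, 6 higher with the block, and the median was 0.30. Their summed intensity, mainly globin, was 30820 to 35710 against 18800 to 23010, with the highest value of each genotype on array 1. Car1, Epb42 and Tal1 were not above the floor on 3 arrays. The part of blood in these results was not tested.

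Several genes of antigen presentation were higher. H2-Aa, the alpha chain of the class II molecule that shows peptides to helper T cells, was 6.34-fold higher. It read 7.51, 7.60 and 7.98 in Dysf_null against 4.98, 4.99 and 5.13 (2.66 ± 0.24, adjusted p 0.00131). Cd74, the invariant chain that travels with class II, read 9.11, 9.29 and 9.27 against 7.79, 8.09 and 7.85 (1.32 ± 0.14, adjusted p 0.00343), and both calls held. H2-Ab1, the beta chain, read 7.08, 7.25 and 6.95 against 5.48, 6.02 and 5.56 (1.41 ± 0.25, adjusted p 0.0422, lost whichever array was left out, at most 0.179 without Dysf_null array 2). Of 13 class II genes measured 3 were called higher and 0 lower, with a median of 0.57 and a summed intensity of 2089 to 2533 against 1203 to 1445. H2-Eb1, another beta chain, differed by 0.74 ± 0.23 with overlapping groups (adjusted p 0.27).

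For class I, found on nearly all cells, B2m, the common light chain, read 11.19, 11.43 and 11.22 against 10.34, 10.34 and 10.43 (0.91 ± 0.11, adjusted p 0.00519), a call that held without any 1 array but not with no intensity trend (adjusted p 0.0966). H2-K1 (0.86 ± 0.11, adjusted p 0.00843, at most 0.0656 without Dysf_null array 3) and H2-D1 (0.95 ± 0.12, adjusted p 0.00912, at most 0.0679 without Dysf_null array 2) were called too. A further probe set of H2-D1 (0.78 ± 0.12, adjusted p 0.0227, lost whichever array was left out, at most 0.117 without Dysf_null array 2) and H2-Q4 (1.17 ± 0.19, adjusted p 0.0313, at most 0.151 without Dysf_null array 3), named after its values were seen, were also called. The class I heavy chains are near-identical and their probe sets can bind each other's transcripts, so which of them rose is uncertain. Another probe set of H2-K1 differed by -0.38 ± 0.38. Of 14 class I genes 3 were called higher and 0 lower (median 0.24), with summed intensities of 7800 to 8140 against 5150 to 5276.

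Of 28 measured interferon response genes 1 was called higher and the median was 0.05. The call was Isg20, an interferon-induced nuclease, at 7.47, 6.87 and 6.85 against the floor on all 3 controls, at least 6.55-fold higher (adjusted p 0.00283). Isg15, a ubiquitin-like interferon product, differed by 0.40 ± 0.17 (adjusted p 0.5).

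**Figure D3:**
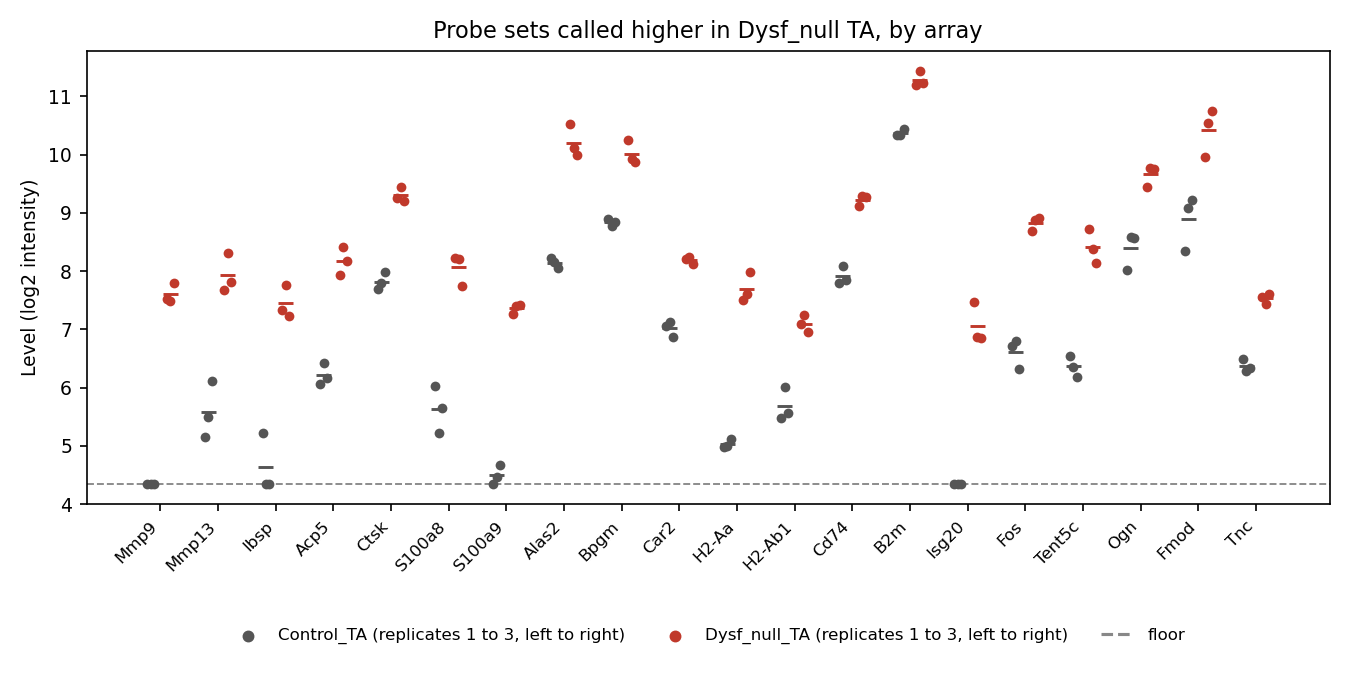
Log2 intensity of 20 genes called higher in Dysf_null TA, 1 point per array with the group mean as a bar, controls in grey and Dysf_null in red, and the floor as a dashed line. All controls of Mmp9 and Isg20 lie on the floor, and in each gene every Dysf_null array is above every control array.

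Macrophage genes gave a mixed picture. Of 33 measured, 28 differences were above 0 and the median was 0.32, with 1 gene called higher and 1 lower. Cd68, a lysosomal protein used as a macrophage marker, read 7.43, 7.28 and 7.14 in Dysf_null against 8.59, 8.62 and 8.64 (-1.33 ± 0.15, adjusted p 0.00415), and the call held. This probe set is of a type that can bind more than 1 transcript. Cd53, a membrane protein of white blood cells, went the other way at 6.06, 5.77 and 5.97 against 4.35, 4.38 and 4.68 (1.47 ± 0.25, adjusted p 0.0412, 0.053 with the block, lost whichever array was left out, at most 0.195 without control array 2). The chemokine Ccl9 differed by 0.85 ± 0.18 and the complement gene C1qa of macrophages by 0.63 ± 0.13 (adjusted p 0.085 for both, and 0.025 and 0.047 with the block). Summed macrophage intensity was 6301 to 6949 against 5070 to 5686, and Itgam, Aif1 and Marco were not above the floor on 3 arrays. The lists of lymphocytes (24 measured, 5 at an unadjusted p under 0.05, median 0.12), mast cells and eosinophils (6 measured, 2 at that p, median 0.17) and complement (15 measured, 3 at that p, median 0.22) had no call in limma. Of 35 lymphocyte genes on the array 11, with Cd3e, Cd3d and Cd8a among them, were not above the floor on 3 arrays. The same held for 9 of 15 mast cell and eosinophil genes, with Mcpt4, Fcer1a and Prg2 among them. The lack of a call thus says little of these cells. Klrb1b, a receptor of natural killer cells, was close to the floor in Dysf_null and low in controls (-1.41 ± 0.24, adjusted p 0.0379, 0.053 with the block, lost whichever array was left out, at most 0.177 without control array 2).

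Most genes of connective tissue had differences above 0, and some rose. Of 23 genes of fibroblasts and tendon 21 differences were above 0, and 13 had all Dysf_null arrays above all controls, against 7.5% of all probe sets. On the list 3 were called higher (Ogn, Fmod and Serpinf1) and 6 with the block, and the median was 0.54. Ogn, a small proteoglycan that binds collagen, was higher on both probe sets. The brighter read 9.45, 9.77 and 9.76 against 8.01, 8.59 and 8.56 (1.27 ± 0.18, adjusted p 0.0149, at most 0.1 without Dysf_null array 2), and the other differed by 1.13 ± 0.16 (adjusted p 0.0146, at most 0.0911 without Dysf_null array 2). Fmod, fibromodulin of tendon, read 9.96, 10.54 and 10.75 against 8.35, 9.09 and 9.22 (1.53 ± 0.26, adjusted p 0.0412, at most 0.169 without Dysf_null array 2). Array 1 was the lowest of Ogn and Fmod in each genotype. Serpinf1, the secreted factor PEDF, read 9.79, 10.30 and 10.26 against 8.93, 9.28 and 8.93 (1.07 ± 0.17, adjusted p 0.0275, at most 0.134 without Dysf_null array 2). Igfbp6, a binding protein of growth factors made by fibroblasts, differed by 0.57 ± 0.10 (adjusted p 0.054, and 0.021 with the block).

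Of 46 matrix genes 2 were called higher and 0 lower, and 6 higher with the block, with a median of 0.25. Tnc, tenascin C of tendon junctions and healing tissue, was called on 1 probe set only. It read 7.56, 7.44 and 7.61 against 6.49, 6.28 and 6.34 (1.17 ± 0.19, adjusted p 0.0313, at most 0.161 without Dysf_null array 3), while a weaker probe set differed by 0.20 ± 0.32 with overlapping groups (adjusted p 0.91). Timp2, an inhibitor of matrix proteases, read 8.71, 8.50 and 8.58 against 7.81, 7.87 and 7.62 (0.83 ± 0.14, adjusted p 0.0412, at most 0.161 without Dysf_null array 3). Both lost the call whichever array was left out. Col3a1, the collagen of early repair, named after its values were seen, was higher on 1 of 3 probe sets (0.68 ± 0.11, adjusted p 0.0295, lost whichever array was left out, at most 0.134 without Dysf_null array 2). Its other probe sets, of which 1 was brighter, differed by 0.32 ± 0.17 and -0.05 ± 0.25. Lox, which cross-links collagen, differed by 0.82 ± 0.16 on its brighter probe set (adjusted p 0.062). The summed fibroblast and tendon intensity was 32160 to 41980 against 24830 to 30580.

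Among immediate early genes, which respond within minutes to stimuli, Fos rose. It read 8.68, 8.88 and 8.92 in Dysf_null against 6.71, 6.80 and 6.32 (2.21 ± 0.18, adjusted p 0.000889), and the call held. Its other probe set lay near the floor with overlapping groups (0.01 ± 0.33). Btg2, an inhibitor of cell division, read 9.54, 9.70 and 9.80 against 8.70, 8.73 and 8.94 (0.89 ± 0.13, adjusted p 0.0149, at most 0.0937 without control array 2). These were 2 of 36 measured genes, and the median of the list was 0.15. With the block 4 were called, with Klf4 (0.87 ± 0.16, adjusted p 0.053, and 0.048 with the block) and Jund (0.70 ± 0.15, adjusted p 0.085, and 0.032 with the block) among them.

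In the cytoskeleton 2 of 38 measured genes were called higher and 1 lower, and 7 higher and 1 lower with the block. Tpm4, a tropomyosin of dividing and repairing cells, read 10.45, 10.39 and 10.33 against 9.79, 9.73 and 9.66 (0.66 ± 0.10, adjusted p 0.0226, at most 0.122 without Dysf_null array 2). Tuba1a, an alpha tubulin, read 11.27, 11.17 and 11.12 against 10.54, 10.54 and 10.20 (0.76 ± 0.12, adjusted p 0.0313, at most 0.134 without Dysf_null array 2). Both lost the call whichever array was left out. Tubb6, a beta tubulin found in regenerating fibres, went the other way at 9.37, 9.33 and 9.35 against 10.01, 10.20 and 10.11 (-0.76 ± 0.11, adjusted p 0.0145, at most 0.094 without control array 2). Tubulin genes are alike, and the probe sets of Tuba1a and Tubb6 are of types that can bind relatives. Of 43 cell cycle genes 0 were called in limma and 9 had an unadjusted p under 0.05, with a median of 0.28 and 31 above 0. Ccna2, a cyclin of dividing cells, differed by 1.17 ± 0.30 (adjusted p 0.16).

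Markers of the other cell types a whole muscle holds showed no call in limma. Those of endothelium (24 measured, median 0.07) had 0 at an unadjusted p under 0.05, mural cells (13, median 0.11) had 1, fat (27, median 0.08) had 6, nerve and Schwann cells (17, median 0.17) had 3 and skin (14, median 0.05) had 3. Skin intensities summed to 7752 to 11010 in Dysf_null against 5049 to 6697, while Krt5 and Krt14 were not above the floor on 3 arrays. Most of that sum was Sprr1b, a skin barrier protein, on a probe set designed under relaxed rules (0.80 ± 0.19, adjusted p 0.12, and 0.0041 with the block). Genes of growth factor signalling (35 measured, 2 at an unadjusted p under 0.05, median 0.04) and of the clock (15 measured, 2 at that p, median -0.23) had no call in limma either. Car3, a carbonic anhydrase of fat and slow fibres on the fat list, differed by 0.67 ± 0.22 (adjusted p 0.32, and 0.035 with the block). Mstn, which encodes myostatin, a brake on muscle growth, differed by 0.34 ± 0.13 (adjusted p 0.4). The 14 measured genes of limb position had 0 calls in limma and 1 at an unadjusted p under 0.05, with a median of 0. Of 29 cathepsin and lysosome genes the 2 called were Ctsk and Cd68, in opposite directions.

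**Figure D4:**
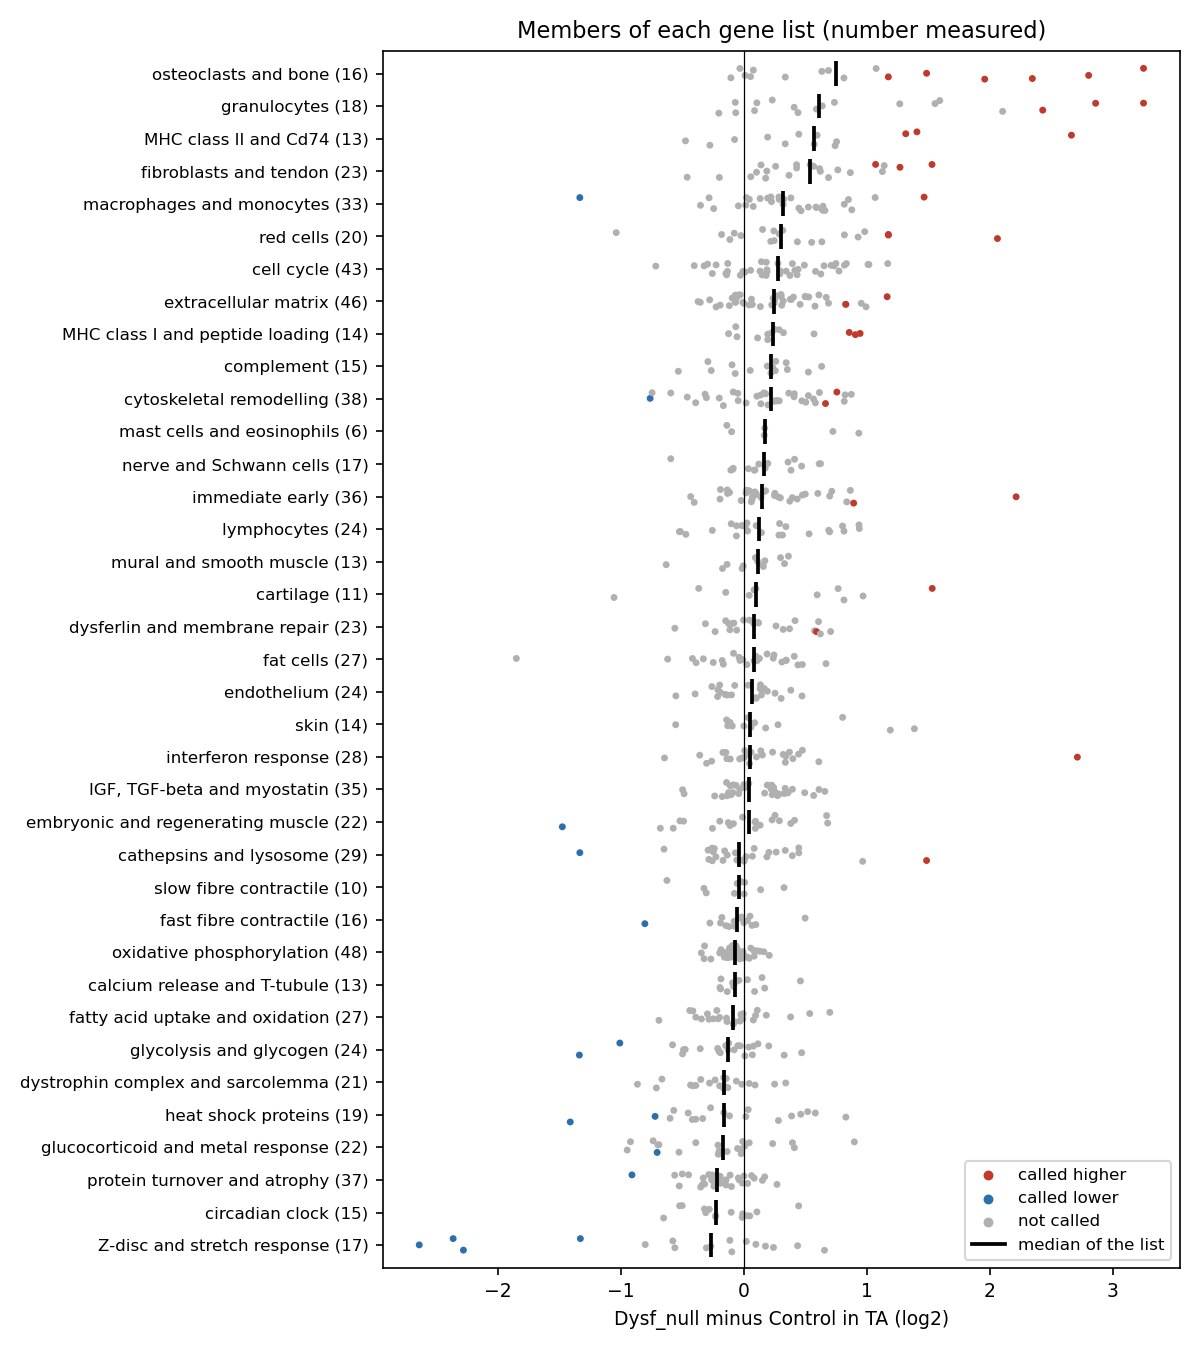
Dysf_null minus control difference in TA (log2, horizontal axis) of each measured member of 37 gene lists (rows, with the number measured), on the brightest probe set of each gene, with calls in red or blue and the list's median as a black bar. Medians run from -0.27 for the Z-disc and stretch list to 0.75 for osteoclasts and bone, and the blue points of the Z-disc list and the red points of the top lists lie farthest from 0.

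Several strong calls fell outside these lists. Anp32a, an inhibitor of a protein phosphatase, was at the floor on all 3 Dysf_null arrays and read 7.69, 7.30 and 7.24 in controls, at least 8.34-fold lower (adjusted p 0.000889). Its other probe set differed by 0.34 ± 0.21 with overlapping groups, so the gene as a whole was not shown to fall. Plekho1, a partner of casein kinase, read 4.70, 5.85 and 4.54 against 7.44, 8.08 and 7.21 on the called probe set (-2.55 ± 0.39, adjusted p 0.0236, at most 0.106 without control array 2), and its other probe sets differed by -1.49 ± 0.39 and -0.32 ± 0.22. Adam11, an inactive member of a protease family, was at 4.35, 4.48 and 4.84 against 6.62, 6.64 and 6.69 (-2.09 ± 0.25, adjusted p 0.00675). The call held without any 1 array but was lost with the variance shared with the QF arrays (adjusted p 0.314). Uck2, a kinase of pyrimidine salvage, read 7.55, 7.33 and 7.31 against 8.80, 8.70 and 8.61 (-1.30 ± 0.15, adjusted p 0.00428). Rgcc, a cell cycle regulator, read 8.91, 8.58 and 8.64 against 9.97, 9.87 and 9.75 (-1.16 ± 0.13, adjusted p 0.00428). These calls of Uck2 and Rgcc held without any 1 array, and that of Rgcc was lost with no filter on low values (adjusted p 0.0514) or no intensity trend (0.0533). Syt8, a synaptotagmin, was near the floor in Dysf_null (-1.71 ± 0.30, adjusted p 0.0438, at most 0.208 without control array 2).

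On the higher side, Tent5c, which lengthens the tails of messenger RNA, read 8.73, 8.39 and 8.14 against 6.55, 6.36 and 6.19 (2.05 ± 0.21, adjusted p 0.00284), and the call held. Mkrn1, a ubiquitin ligase, was higher on 2 of 3 probe sets. The brighter read 9.63, 8.90 and 8.92 against 7.71, 7.61 and 7.82 (1.44 ± 0.21, adjusted p 0.0149, at most 0.0848 without control array 2). The other called probe set had all controls at the floor and was at least 4.18-fold higher (adjusted p 0.0329, at most 0.125 without control array 2), and the third differed by 0.55 ± 0.29. For Tent5c, Mkrn1, Alas2 and Bpgm, array 1 was the highest of the 3 Dysf_null arrays, as it was for the summed red cell genes. The same order was seen in other called genes, among them Isg20, S100a8, Tpm4 and Nsf, so it does not link Tent5c or Mkrn1 to red cells. Tmem45a, a membrane protein, differed by 1.64 ± 0.26 (adjusted p 0.0295, lost whichever array was left out, at most 0.148 without Dysf_null array 3).

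The probe set with the lowest adjusted p among the rises, 97519_at, is not named in the table used. It read 10.37, 10.38 and 10.41 against 6.61, 6.95 and 7.26 (3.45 ± 0.17, 10.9-fold, adjusted p 5.9e-05), and the call held. The unnamed 100336_s_at (2.18 ± 0.14, adjusted p 0.000187) and 93273_at (2.59 ± 0.32, adjusted p 0.00688, at most 0.0507 without Dysf_null array 2) were also higher, and the call of the former held. So were 97173_f_at (1.41 ± 0.25, adjusted p 0.0422, at most 0.183 without Dysf_null array 2) and 98438_f_at (0.84 ± 0.14, adjusted p 0.0393, lost whichever array was left out, at most 0.148 without Dysf_null array 3), which carry several gene symbols. Named after their values were seen, the remaining falls were in Pla2g12a, a secreted phospholipase (-1.11 ± 0.13, adjusted p 0.00428), Phlda3 (-0.84 ± 0.13, adjusted p 0.0226, at most 0.12 without Dysf_null array 2) and the splicing factor Prpf19 (-0.80 ± 0.11, adjusted p 0.0149, at most 0.0861 without Dysf_null array 2). The call of Pla2g12a held without any 1 array, but not with no filter on low values (adjusted p 0.074) or no intensity trend (0.0714). Pla2g12a and Prpf19 each had 1 other probe set tested, which was not called. The remaining rises were in the membrane fusion factor Nsf (1.49 ± 0.26, adjusted p 0.0415, 0.056 with the block, at most 0.154 without control array 2), Cd99 (0.78 ± 0.14, adjusted p 0.0447, at most 0.17 without Dysf_null array 2) and Dap (0.78 ± 0.14, adjusted p 0.0422, at most 0.187 without Dysf_null array 3). Prpf19, Nsf, Cd99 and Dap lost the call whichever array was left out.

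To see whether these differences were particular to TA, the genotype difference in TA was set against that in QF, from other arrays, in a fit of all 12. The labels do not say whether the TA and QF arrays come from the same mice, and the fit takes all arrays as independent. If mice are shared, agreement between the muscles is not independent support, and the SE of the difference between them ignores a pairing. The difference between muscles was called for 7 of 10331 probe sets (0.0678%), all of them among the 74, and 315 had an unadjusted p under 0.05. Of the 74, 58 (78.4%) had the same sign in QF, against 55.3% of all 10331. In the QF comparison of that fit 14 of the 74 were called too, against 47 (0.455%) of all. Csrp3 differed by 0.56 ± 0.24 in QF, with overlapping groups and no call there (adjusted p 0.70). TA minus QF was -3.23 ± 0.34 (adjusted p 0.00142). In QF its level was 9.22, 8.55 and 9.24 in Dysf_null and 8.63, 7.84 and 8.87 in controls. The control TA arrays, at 12.80, 12.63 and 12.96 in this normalization, were thus the high ones, and Dysf_null TA lay nearer the level of QF. For Ankrd2 too the control TA arrays were the high ones, while in QF its levels were lower in Dysf_null than in controls on average (a difference of -0.25). It read 9.56, 9.35 and 9.23 in Dysf_null QF, 9.64, 9.89 and 9.35 in control QF, 10.04, 9.74 and 10.14 in Dysf_null TA and 12.39, 12.14 and 12.30 in control TA. TA minus QF was -2.05 ± 0.23 (adjusted p 0.00156). For Ankrd1 the difference between muscles was not called (QF difference -0.97, adjusted p 1 for the interaction).

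S100a8 and S100a9 had differences of opposite sign in the muscles. S100a9 was -1.82 in QF and 2.74 in TA (TA minus QF 4.56 ± 0.46, adjusted p 0.00115), and S100a8 was -1.58 in QF and 2.32 in TA (3.89 ± 0.54, adjusted p 0.0128). The QF difference was called for S100a9 (adjusted p 0.028) and not for S100a8 (0.13). In QF the controls of S100a9 were the higher group (7.02, 5.96 and 6.48 against 4.53, 4.53 and 4.96). Tubb6 was higher in QF (1.00) and lower in TA (-0.75), a difference of -1.75 ± 0.24 (adjusted p 0.0119). Cryab differed by -0.14 in QF (TA minus QF -1.27 ± 0.20, adjusted p 0.0339), and 97519_at by 0.25 (3.07 ± 0.29, adjusted p 0.00108). Leaving out 1 of the 12 arrays ended the call of Cryab in 10 fits (at most 0.132 without control QF array 1), of S100a8 in 6 (at most 0.0756 without Dysf_null TA array 2) and of Tubb6 in 3 (at most 0.0604 without Dysf_null TA array 2). Those of Csrp3, S100a9, Ankrd2 and 97519_at held in all 12. With the replicate block 32 probe sets were called on this difference.

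Other genes differed with the same sign in both muscles, with no call on the difference between them. H2-Aa differed by 2.59 in QF and 2.54 in TA in this fit, Cd74 by 1.14 and 1.26, B2m by 0.88 and 0.92, Fos by 1.58 and 2.11, and Fmod by 1.51 in both. Mt2 was lower in QF (-1.82) by more than in TA, and Col3a1 was higher in QF (1.92) by more than in TA, without a call on either difference (adjusted p 0.75 and 0.35). For Mmp9, Acp5 and Ibsp the QF differences were 0.43, 0.38 and -0.20, and the interaction adjusted p was 0.82, 0.37 and 0.31.

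**Figure D5:**
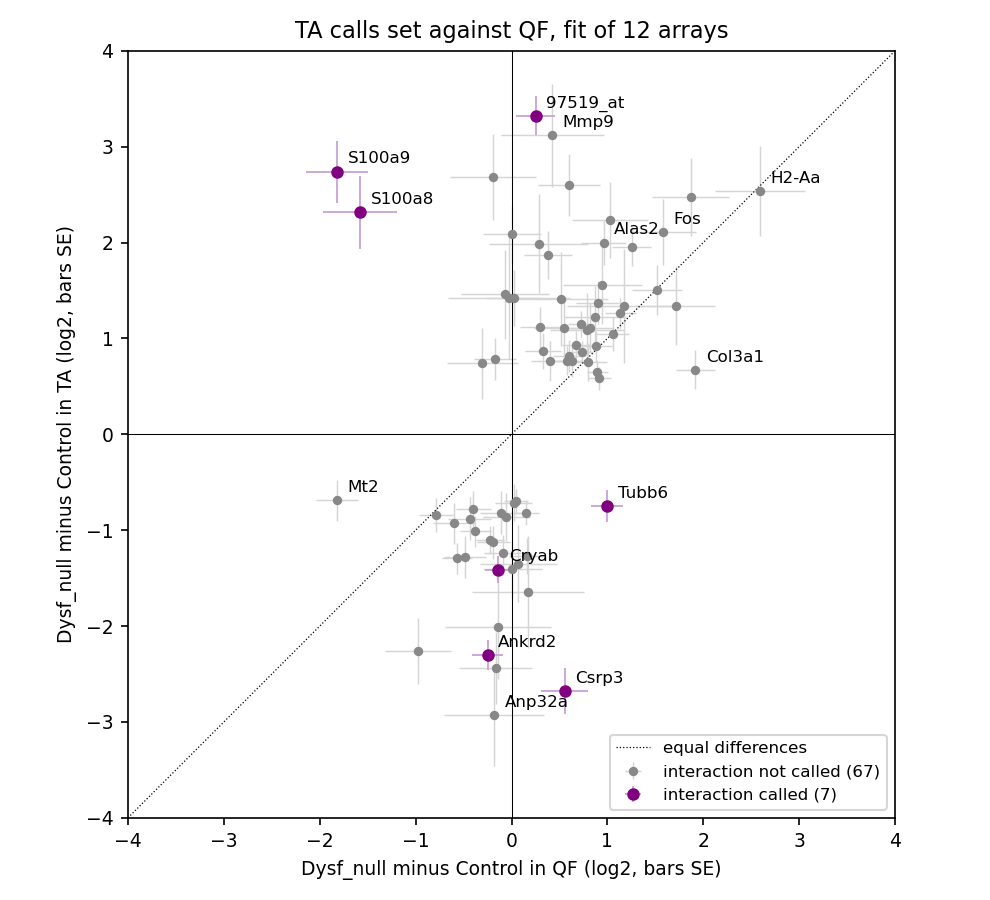
Each of the 74 probe sets called in TA is a point, with its genotype difference in QF on the horizontal axis and in TA on the vertical axis (log2, bars are SE, fit of 12 arrays), and the dotted line marks equal differences. The 7 called on the difference between muscles are purple: S100a8 and S100a9 in the upper left, 97519_at above, and Csrp3, Ankrd2, Cryab and Tubb6 below 0 in TA, with H2-Aa, Fos and others near the line.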

How the data were processed

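Single-channel arrays of TA muscle, 3 Dysf_null and 3 control, were used from a table of 12. The deposited values were linear intensities. By their trimmed means (200.14 to 200.16) the authors had scaled every array alike. How probe sets were summarised and corrected for background is not given in the sources used here. Then the 6 TA arrays were quantile normalized without 66 control probe sets. Values under their 25th percentile (intensity 20.433, log2 4.353) were raised to that floor, and log2 was taken of the normalized values. Those over the floor on 3 or more arrays (9532) were fitted in limma 3.58.1 (R 4.3.3; two-sided, intensity trend, 4 residual degrees of freedom, Benjamini-Hochberg over all, called under 0.05). The precision is limited by the number of arrays, with a median SE of 0.2452. A group wholly at the floor gives a bound ("at least") and has no spread, so the adjusted p there may overstate the precision. The interaction was fitted on 12 arrays (10331 probe sets).

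Of 12422 probe sets, 10833 had 1 gene symbol in the platform's annotation table, 396 several and 1193 none there. Symbols were checked against a GRCm38.p6 gene table. Figures used Python 3.11.15 and matplotlib 3.10.9. Members, 39 gene lists and tests were chosen with earlier results of these data known. Genes named were up to 15 each way with the largest called differences, the 4 smallest p-values of each list, and relatives of the first.

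Same-numbered arrays of the genotypes deviated together from their group means (correlations 0.189, 0.118 and 0.238, others -0.233 to 0.013). Deviations from a group mean cancel within the group, so the other correlations are tied to these. The labels state no pairing, and the main fit, with its SE and adjusted p, does not use one. A fit with the replicate number as a block was run as an alternative because of these correlations. The block was thus chosen on the data it was fitted to, and its values are no added support for a gene. The blocked value is given where it changes a call. Tested on simulated data of this design, the fit called 62 of 100 probe sets changed by 1 on the log2 scale and 99 of 100 changed by 2, with 9 false among 170 calls. The changed probe sets were drawn only from those with a mean well above the floor, and the noise was independent between arrays. The simulation thus does not describe calls near the floor or the correlation of same-numbered arrays. Alternatives were other normalizations, floors, filters, variances, array weights, the block and leaving out each array.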

Additional observations from a re-analysis of the deposited data

Results flagged for a closer look

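The genotype difference in TA was called as different from that in QF for 7 probe sets. TA minus QF was -3.23 for Csrp3, -2.05 for Ankrd2, -1.27 for Cryab and -1.75 for Tubb6. It was 3.89 for S100a8, 4.56 for S100a9 and 3.07 for the unnamed 97519_at. S100a8, S100a9, Csrp3 and Tubb6 had opposite signs in the muscles, and the other 3 had the same sign with a smaller difference in QF. The QF difference itself was called in limma only for S100a9 and Tubb6 (adjusted p 0.028 and 0.0208). It was not called for S100a8 or Csrp3 (0.13 and 0.70), so their sign in QF is uncertain. Nor was it called for Ankrd2 (-0.25 ± 0.16), Cryab (-0.14 ± 0.14) or 97519_at (0.252 ± 0.205). These QF differences were small beside their SE, so the shared sign of these genes is at least as uncertain. The adjusted p of the difference in limma ranged from 0.00108 for 97519_at to 0.0339 for Cryab.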

How the results depend on the processing

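The 74 calls in TA became 41 with no filter on low values, 33 with no intensity trend, 42 with the variance shared with the QF arrays and 162 with the replicate block, and leaving out 1 array gave 30 to 56. The other settings (normalization over 12 arrays or none, other floors, all 6 arrays above the floor, array weights) gave 63 to 110. The 7 interaction calls became 32 with the replicate block and 4 to 8 without 1 of the arrays, with 5 to 7 otherwise. Over 168 named genes and 16 alternatives, 0 called differences changed sign, while uncalled ones near 0 (Ckm, Kit, Myh4, Mylpf and Tpsb2) did so without 1 of the arrays. With the block 3 of these genes lost a call and 19 gained one, with the values of those in the text beside them, and it changed no other call of a named gene. The normalization moved the median of all differences by at most 0.0386. With 3 arrays a group and values near the floor for Anp32a, Mmp9, Isg20 and Ibsp, the size of such differences is a bound or close to one.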
